A study of Mus musculus with 8 samples.

Results

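Skeletal muscle regenerates from satellite cells, which rest beneath the basal lamina of the fibre and are recognised by a set of genes, some of which their differentiating progeny lose. The values below are those of 10 genes of this set, Pax7, Pax3, Spry1, Calcr, Cd34, Sdc3, Sdc4, Megf10, Fgfr4 and Fgfr1, of 31896 gene names on the array. The genes were chosen by name, as regulators or surface markers of satellite cells, and every non-control spot whose gene name was a member was taken. All 10 were on the array, by 15 probes. Of these, 9 passed the filter, a signal that the extraction software calls well above background on 4 or more of the 8 arrays, and were tested among 19653 genes. The exception was Calcr, which was not well above background on any array.

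The cells came from a fast muscle of the lower hindlimb, the extensor digitorum longus. The donors were mice labelled Dnmt3a-KO, a knockout of the de novo DNA methyltransferase Dnmt3a, and wild-type (WT) littermates matched for age and sex. All mice were 8 weeks old and are labelled male. The cells spent 5 days in growth medium, were replated at matched cell numbers, and were then kept in differentiation medium, in which progeny of satellite cells fuse into myotubes, for 2, 4, 5 or 6 days. Each genotype and day gave 1 one-colour array, so there were 8 arrays and 4 pairs of a Dnmt3a-KO and a WT array. The labels do not say how or in which cells Dnmt3a was deleted, how many mice were pooled, or whether the days were separate cultures. The p-values therefore measure the spread between these arrays, which may be technical.

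Pax7 and its paralogue Pax3 are paired-box transcription factors that specify satellite cells and myogenic progenitors. Around them stand receptors that hold a satellite cell in its niche or let it answer growth factors: the fibroblast growth factor (FGF) receptors Fgfr1 and Fgfr4, their heparan sulphate co-receptors Sdc3 and Sdc4, and the calcitonin receptor Calcr. Spry1 is a feedback inhibitor of FGF signalling that supports the return to quiescence, Megf10 is a transmembrane receptor with epidermal growth factor repeats, and Cd34 is a sialomucin of quiescent satellite cells that is also found on endothelial and fibro-adipogenic cells.

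Because Dnmt3a methylates cytosines next to guanines (CpG), the 250 bases upstream of the start of 3 members are shown, with each CpG in capitals. Fgfr4 and Pax7 had the largest differences between genotypes and Cd34 was the member that rose in culture, so they were picked after their values were seen. The sequences are those of RefSeq on GRCm38.p6, read 5′ to 3′ on the strand of the gene. The Fgfr4 window is chr13:55152568-55152817 on the plus strand, the Pax7 window chr4:139832969-139833218 on the minus strand, and the Cd34 window chr1:194938571-194938820 on the plus strand.
Fgfr4: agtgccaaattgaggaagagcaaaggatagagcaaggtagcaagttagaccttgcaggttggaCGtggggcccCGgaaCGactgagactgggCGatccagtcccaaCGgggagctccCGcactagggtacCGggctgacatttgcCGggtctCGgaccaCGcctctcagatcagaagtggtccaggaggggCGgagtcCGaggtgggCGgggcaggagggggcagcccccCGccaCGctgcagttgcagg
Pax7: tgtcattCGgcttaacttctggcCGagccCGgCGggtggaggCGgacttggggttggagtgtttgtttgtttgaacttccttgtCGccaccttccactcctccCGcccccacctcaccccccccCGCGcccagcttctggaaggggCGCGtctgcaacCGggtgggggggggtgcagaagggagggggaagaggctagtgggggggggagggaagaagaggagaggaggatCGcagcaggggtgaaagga
Cd34: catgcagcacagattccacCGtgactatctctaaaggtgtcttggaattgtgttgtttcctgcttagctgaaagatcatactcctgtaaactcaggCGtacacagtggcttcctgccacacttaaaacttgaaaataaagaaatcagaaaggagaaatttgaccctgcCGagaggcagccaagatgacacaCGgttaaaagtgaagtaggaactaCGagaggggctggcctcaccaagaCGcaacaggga
The Fgfr4 window held 15 CpG, more than 72.7% of 32851 windows of this length upstream of RefSeq genes, and the Pax7 window held 13, more than 68.5%. The Cd34 window held 6, which equals the median of all windows. Of the other members with a window, Sdc3 had 32, Spry1 23, Sdc4 19, and Calcr 24 and 2 at 2 starts. The E-box CAGCTG, bound by the MyoD family, was searched on both strands and was in none of the windows of these 7 genes, against 13.0% of all windows. The sequence GTGGGAA, which the Notch effector Rbpj binds, was likewise in none, against 5.42% of all windows. No methylation was measured here, and a match or its absence describes only these letters.

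Signal is given as log2 of a spot's processed intensity over the 75th percentile of its array, so that 0 is the level of that percentile and 1 unit is a 2-fold difference. A probe is compared only with itself on other arrays. Between 61.6% and 67.4% of spots were well above background, and replicate spots of a probe had a median SD of 0.059 to 0.16 units within an array. Dnmt3a signal in the knockout was 46.2% of WT on day 2 and 19.1% to 21.7% on the later days; the labels do not give the deleted exons, so this probe may lie outside them. Among markers of satellite cells and myoblasts, Pax7, Vcam1, Itga7, Cdh15, Myod1, Des and Chrna1 were well above background on all 8 arrays, and Myf5, a defining factor of these cells, was on none. Day 2 stands apart. Its arrays lie on a slide of their own and were read with another scanner model and another version of the extraction software than days 4 to 6. The Y-linked transcripts Uty, Kdm5d, Eif2s3y and Ddx3y were detected (well above background) on both day 2 arrays, where the X-inactivation transcript Xist was not. On all 6 later arrays the reverse held, against the label of male mice. Any difference between day 2 and the later days therefore cannot be told apart from slide, scanner, software or the mice. Days 4 and 5 share a slide and day 6 lies on another, with the same scanner model and software version. A difference of day 6 from days 4 and 5 therefore cannot be told apart from slide.

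The first comparison asks whether satellite cell genes differed between Dnmt3a-KO and WT cultures. Fgfr4 was the member with the largest difference, lower in Dnmt3a-KO on each of the 4 days by 1.33 ± 0.37 log2 units (SD over days, n = 4), a 2.51-fold lower mean signal. Pax7 was also lower on each day, and Pax3 on days 4, 5 and 6. Megf10 and Spry1 were higher on each day, by less. No member passed limma's test with Benjamini-Hochberg adjustment at 0.05 over all genes, in which 0.0102% of genes were called, and 4 of the 9 had an unadjusted p under 0.05, against 12.9% of all genes. Fewer satellite cells in a culture and less of these transcripts per cell cannot be told apart in bulk RNA.

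**Figure D1:**
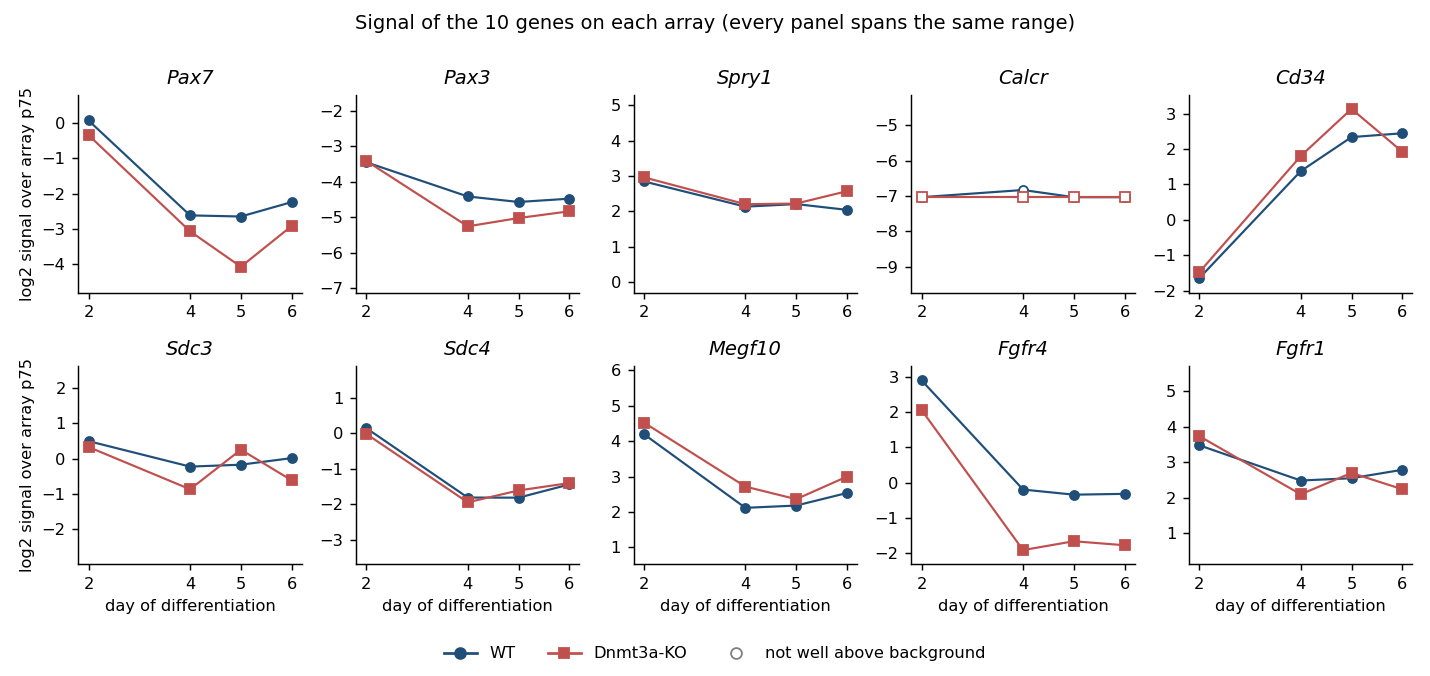
Signal of the tested probe of each gene (the single probe for Calcr) on each array, as log2 of intensity over the array's 75th percentile (p75), by day of differentiation, with 1 array per point. Fgfr4 in Dnmt3a-KO lies below WT on all 4 days, most members step down after day 2, Cd34 steps up from -1.65 in WT to 1.38 on day 4, and Calcr stays at the floor or near it.

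Among the transcription factors, Pax7 signal was 0.07 in WT and -0.35 in Dnmt3a-KO on day 2, -2.62 and -3.07 on day 4, -2.65 and -4.07 on day 5, and -2.24 and -2.92 on day 6. The knockout array was the lower of each pair, and on days 4 to 6 its highest value lay below the lowest WT value. The mean difference was -0.74 ± 0.47 (SD, n = 4 days; limma adjusted p = 0.28), and day 5 held the widest gap, with Dnmt3a-KO at 37.4% of WT. Without day 5 the difference was -0.51. The Pax7 probe lies at chr4:139294364-139294423 in mm9, the build named in the file headers. Pax3 signal was -3.45 in WT and -3.41 in Dnmt3a-KO on day 2, -4.41 and -5.26 on day 4, -4.57 and -5.02 on day 5, and -4.48 and -4.83 on day 6. The genotypes differed by 0.04 on day 2 and did not overlap on days 4 to 6, with Dnmt3a-KO the lower. The mean over days was -0.40 ± 0.36 (SD, n = 4; limma adjusted p = 0.38). A further Pax3 probe, A_51_P315734, printed as 10 spots, was well above background only on day 2, where its genotype difference was -0.11, so days 4 to 6 give no comparison with it.

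Among the FGF receptors, Fgfr4 signal was 2.89 in WT and 2.06 in Dnmt3a-KO on day 2, -0.19 and -1.91 on day 4, -0.34 and -1.66 on day 5, and -0.32 and -1.77 on day 6. The knockout was lower in every pair, at 56%, 30.5%, 40.1% and 36.5% of WT on days 2, 4, 5 and 6, and the genotypes did not overlap on days 4 to 6. Fgfr4 ranked 51 of 19653 genes by p, with an adjusted p of 0.10 and a 95% confidence interval of the difference of -1.72 to -0.94 (limma). Under normexp background correction with quantile normalization it passed the threshold (-0.90, limma adjusted p = 0.008), and with a trended, robust variance as well (adjusted p = 0.034); its adjusted p over all alternatives ran from 0.008 to 1.0. The tested probe, A_55_P2120055, lies at chr13:55270033-55270092 in mm9. The other Fgfr4 probe, A_55_P2121871, at chr13:55269212-55269271, was lower in Dnmt3a-KO on all 4 days too, by 0.93 ± 0.33 (SD, n = 4; limma adjusted p = 0.13). Its day 4 pair, at -3.52 and -4.93, held the widest gap, as with the tested probe.

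Fgfr1 showed no such pattern. With the tested probe, A_55_P2057777, the signal was 3.48 in WT and 3.74 in Dnmt3a-KO on day 2, 2.48 and 2.09 on day 4, 2.55 and 2.70 on day 5, and 2.78 and 2.24 on day 6. The sign of the difference changed between days, and its mean was -0.13 ± 0.40 (SD, n = 4; limma adjusted p = 0.75). The other probes, A_55_P1967015 and A_55_P1967022, gave 0.19 and 0.015, so the direction of this small difference depends on the probe. Spry1, the feedback inhibitor, was 2.85 in WT and 2.97 in Dnmt3a-KO on day 2, 2.14 and 2.21 on day 4, 2.21 and 2.22 on day 5, and 2.04 and 2.57 on day 6. Its knockout array was the higher in each pair, by 0.12 or less except on day 6, and the mean of 0.18 ± 0.23 was within its spread (SD, n = 4; limma adjusted p = 0.53).

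The syndecans, which carry heparan sulphate chains and present FGF to its receptors, had small differences of mixed sign. Sdc3 signal was 0.50 in WT and 0.33 in Dnmt3a-KO on day 2, -0.22 and -0.86 on day 4, -0.17 and 0.25 on day 5, and 0.02 and -0.61 on day 6. It was lower in the knockout on 3 days and higher on day 5, with a mean of -0.25 ± 0.50 (SD, n = 4; limma adjusted p = 0.62). Sdc4 was 0.15 in WT and -0.01 in Dnmt3a-KO on day 2, -1.81 and -1.95 on day 4, -1.82 and -1.61 on day 5, and -1.44 and -1.40 on day 6. The Sdc4 mean of -0.014 ± 0.17 (SD, n = 4) had a 95% confidence interval of -0.24 to 0.21, and it took the other sign, at 0.015, with the array median as the scale.

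Megf10 signal was 4.20 in WT and 4.53 in Dnmt3a-KO on day 2, 2.11 and 2.71 on day 4, 2.18 and 2.36 on day 5, and 2.53 and 3.0 on day 6. It was higher in the knockout in every pair, by 0.39 ± 0.18 (SD, n = 4; limma adjusted p = 0.25), though WT on day 6 was above Dnmt3a-KO on day 5. Cd34 was -1.65 in WT and -1.48 in Dnmt3a-KO on day 2, 1.38 and 1.80 on day 4, 2.34 and 3.14 on day 5, and 2.45 and 1.92 on day 6. The knockout was higher on 3 days and lower on day 6, with a mean of 0.22 ± 0.56 (SD, n = 4; limma adjusted p = 0.70). Calcr stayed at the floor of -7.03 on 7 arrays and read -6.83 on the WT day 4 array, below the level called well above background, so it gives no fold.

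**Figure D2:**
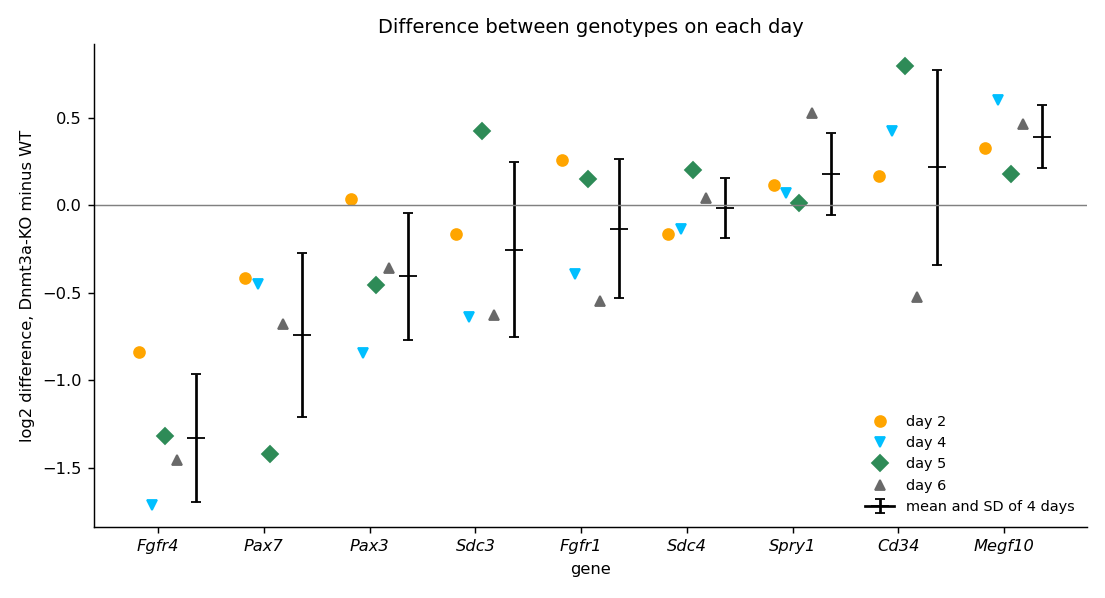
Dnmt3a-KO minus WT difference in log2 signal for the 9 tested genes, with 1 symbol per day and the mean with its SD over 4 days beside them. Fgfr4 and Pax7 lie below 0 on all 4 days, Megf10 and Spry1 above 0, and the other genes have days on either side.

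Counted together, 2 of the 9 members, Pax7 and Fgfr4, were lower in Dnmt3a-KO on all 4 days, as were 11.5% of all genes tested, and 2, Spry1 and Megf10, were higher on all 4 days, as were 10.9%. On days 4 to 6, the knockout arrays of 3 members, Pax7, Pax3 and Fgfr4, all lay below the WT arrays, which held for 8.25% of genes, and for no member did they all lie above, which held for 7.51%. The median difference was -0.13 over the members and -0.012 over all genes, and the median size regardless of sign was 0.25 against 0.11. Without replicates, 2-fold differences on single days have no test. On day 2 no member reached 2-fold, while 1.89% of genes were at least 2-fold higher in Dnmt3a-KO and 1.14% lower. On day 4 Fgfr4 was at least 2-fold lower, with 1.46% of genes higher and 3.07% lower. On day 5 Fgfr4 and Pax7 were, with 0.916% higher and 1.82% lower, and on day 6 Fgfr4 was, with 1.3% higher and 1.88% lower.

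The next comparison follows the members along differentiation. From day 2 to days 4 to 6, Fgfr4, Pax7, Megf10, Sdc4 and Pax3 fell and Cd34 rose in cultures of both genotypes. With a slope over days 2, 4, 5 and 6 and genotype as a covariate, limma called these 6 of the 9 members: 1 rose, where 25.9% of all genes did, and 5 fell, where 19.5% did. An unadjusted p under 0.05 was reached by 8 of the 9 members, all but Sdc3, and by 56.0% of all genes. For all 9 members the later arrays lay wholly on 1 side of both day 2 arrays. On days 4 to 6 alone limma called no member and 0.0% of genes, with 1 member, Sdc4, and 8.0% of genes at an unadjusted p under 0.05. Since that fit called no gene at all, it does not show that the members held still over the later days.

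Fgfr4 had the widest step down. Its mean over days 4 to 6 was 9.05-fold below day 2 in WT and 14.3-fold below in Dnmt3a-KO, and within days 4 to 6 its SD was 0.078 and 0.13 (n = 3 days). Its slope was -0.90 ± 0.19 per day (SE; limma adjusted p = 0.014), and its other probe gave -0.77 (limma adjusted p = 0.021). Pax7 was 5.94-fold lower in WT and 8.03-fold lower in Dnmt3a-KO, with a slope of -0.69 ± 0.19 (SE; limma adjusted p = 0.025). In the knockout its later days ranged from -4.07 to -2.92, so the fall there was less even than in WT. Megf10 was 3.79-fold lower in WT and 3.57-fold lower in Dnmt3a-KO (slope -0.44, limma adjusted p = 0.034), and Sdc4 3.59-fold and 3.12-fold lower (slope -0.40, limma adjusted p = 0.044). Pax3 was 2.06-fold and 3.1-fold lower (slope -0.32, limma adjusted p = 0.033). Under normexp with quantile normalization the Pax3 slope was -0.084 and lost its call (limma adjusted p = 0.057). The probe A_51_P315734 was at least 2.41-fold brighter on day 2 than on days 4 to 6, when it was not well above background.

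Cd34 was the exception. It was 13.1-fold higher on days 4 to 6 than on day 2 in WT and 13.7-fold higher in Dnmt3a-KO, and its slope was 1.03 ± 0.18 per day (SE; limma adjusted p = 0.012). The dimmer Cd34 probe, A_55_P2009225, rose as well (0.71 per day, limma adjusted p = 0.011). In WT the later signal was lowest on day 4, at 1.38, and 1.07 higher on day 6, and in Dnmt3a-KO it was highest on day 5, at 3.14. Cells other than muscle progenitors carry Cd34, so the levels of such cells' markers are given beside it. The summed signal of 9 markers of fibro-adipogenic cells and fibroblasts, as multiples of the 75th percentile, was 6.80 in WT and 6.39 in Dnmt3a-KO on day 2, 19.8 and 5.38 on day 4, 34.7 and 37.4 on day 5, and 22.0 and 10.6 on day 6. From day 2 to each later day it was higher in WT, and in Dnmt3a-KO it was lower on day 4 and higher on days 5 and 6, when Cd34 was higher on all of them. Between genotypes the sum and Cd34 differed in the same direction on days 5 and 6 and in opposite directions on days 2 and 4. Most of this sum is Col1a1 and Col3a1. Taken singly, Dcn differed between genotypes in the direction of Cd34 on each day. Pdgfra did so on days 2, 4 and 5, with WT at the floor on day 2. Col1a1 did so on days 2, 5 and 6, and Thy1 on days 2 and 6. Ly6a did so only on day 5, and Col3a1 and Pi16, the latter well above background on 6 arrays, only on day 6. The markers did not move as 1. Of the 9, 6 or 7 were well above background on each array, and Lum and Dpp4 were on none. Col3a1 in Dnmt3a-KO went from 2.32 on day 2 to 0.15, 2.24 and 1.06. From day 2 to day 4 in Dnmt3a-KO, Col3a1 and Pi16 were lower, and Col1a1, Dcn, Ly6a, Pdgfra and Thy1 were higher. The 8 endothelial markers summed to 2.53 and 2.96 on day 2 and 3.12 to 4.03 later, with Tek, Tie1 and Esam well above background on no array. This sum follows Kdr, which was 1.15 in WT and 1.25 in Dnmt3a-KO on day 2 and between 1.57 and 1.93 later. By contrast, Cldn5 and Pecam1 were lower on every later array than on day 2, while Emcn was at the floor on day 2 and above it later. The part of such cells in the Cd34 signal was not tested.

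**Figure D3:**
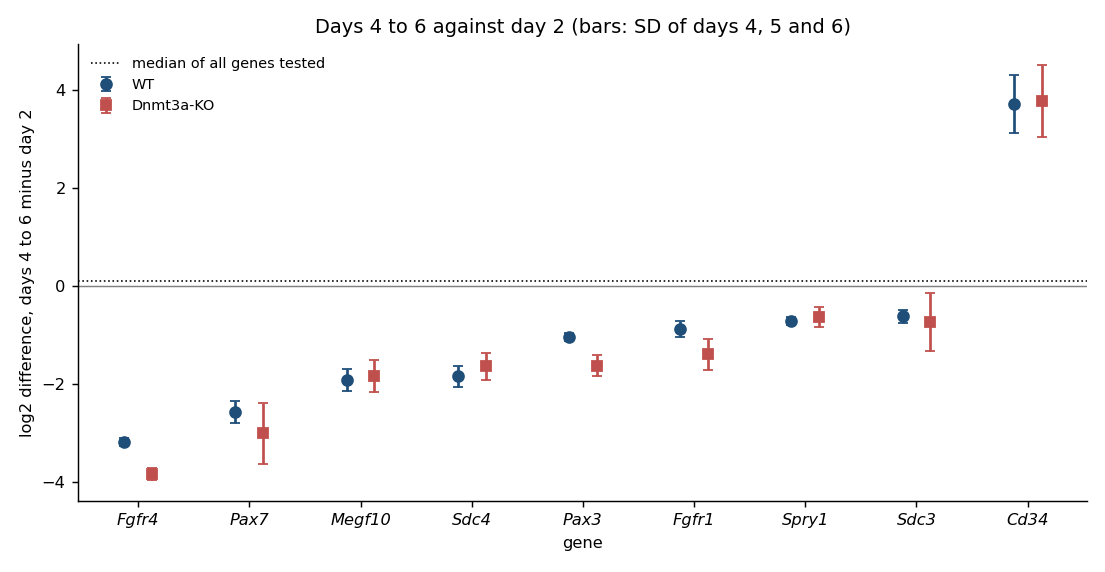
Mean log2 signal of days 4, 5 and 6 minus day 2 for each of the 9 tested genes and genotype, with bars for the SD of the 3 later days and a dotted line at the median of all genes tested, 0.090. Cd34 alone lies above 0, and Fgfr4 is lowest, at -3.18 in WT and -3.83 in Dnmt3a-KO.

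Fgfr1, Spry1 and Sdc3 did not pass the threshold for the slope, though their arrays of days 4 to 6 were also all below both day 2 arrays. Fgfr1 was 1.83-fold lower in WT and 2.63-fold lower in Dnmt3a-KO (limma adjusted p = 0.054), Spry1 1.65-fold and 1.55-fold (0.063), and Sdc3 1.54-fold and 1.67-fold (0.23). For Fgfr1 the probes disagreed in direction. A_55_P1967022 had a slope of -0.18 (limma adjusted p = 0.10) and A_55_P1967015 one of 0.16 (limma adjusted p = 0.018), from -2.39 in WT on day 2 to -1.61 on day 6. In all, 8 of the 9 members had every later array below both day 2 arrays, as had 29.7% of genes, and 1 member, Cd34, had every later array above them, as had 38.1%. The median step was -1.34 over the members and 0.090 over all genes.

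**Figure D4:**
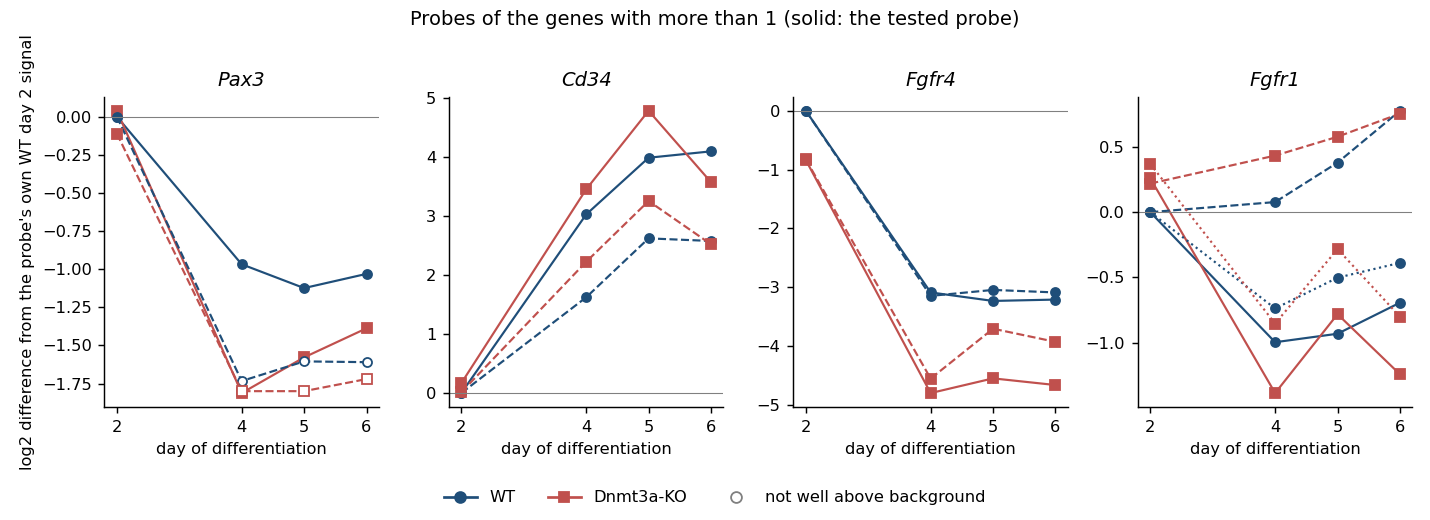
Log2 signal of each probe of Pax3, Cd34, Fgfr4 and Fgfr1 as the difference from its own WT day 2 value, by day, with solid lines for the tested probe, broken or dotted lines for the others, and open symbols where a spot was not well above background. The probes of Fgfr4 and of Cd34 run in the same direction, and 1 of the 3 Fgfr1 probes runs upward while the others run downward.

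These calls depend on day 2 being in the fit. Without day 2 no member was called, and the slopes of Pax7, Fgfr4, Megf10, Sdc4 and Pax3 over days 4 to 6 alone were between 0.0038 and 0.23 per day, with the sign turned. Leaving out only the WT or only the Dnmt3a-KO day 2 array also left 0 members called, with 2 and 0 genes called in all. The slopes then kept their sign, at -0.58 and -0.49 for Pax7, -0.80 and -0.66 for Fgfr4 and 0.90 and 0.89 for Cd34. Calls were also lost without day 5, and 0 members were called without both of its arrays. Without the WT day 5 array 2 were called, Cd34 and Fgfr4, and without the Dnmt3a-KO day 5 array 3, with Pax7 added. Fits of the same size without day 4 or without day 6 kept every call of the full fit. Both added Spry1 (limma adjusted p = 0.039 and 0.024), and the fit without day 4 also added Fgfr1 (0.015). The slopes themselves stayed near their size without both day 5 arrays, at -0.61 for Pax7, -0.88 for Fgfr4 and 0.94 for Cd34. With slide as a random block limma called 1 member, Cd34 (1.03 per day, adjusted p = 0.032), and Pax7 (-0.65) and Fgfr4 (-0.77) did not pass (both adjusted p = 0.054).

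The next question was whether the course differed between genotypes. The limma interaction test called no member and 0.0% of genes, and 1.11% of genes but no member had an unadjusted p under 0.05. For Fgfr4 the slope in Dnmt3a-KO differed from that in WT by -0.14 per day with a 95% confidence interval of -1.13 to 0.85, and for Pax7 by -0.14 with -1.11 to 0.84, so both intervals hold sizeable differences in slope of either sign.

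Of the wider FGF pathway, 24 of 28 listed genes were tested, and none was called between genotypes, with 6 at an unadjusted p under 0.05, where 12.9% of all genes were. The ligand Fgf7 was higher in Dnmt3a-KO on all 4 days, by 0.97 ± 0.39 (SD, n = 4; limma adjusted p = 0.16), and read -1.84 in WT on day 2 and 0.66 on day 6. Fgf10, another ligand, was well above background on all 3 later Dnmt3a-KO arrays but in WT on day 5 alone, where the knockout was higher by 0.91, so the other days give no measured difference. Along differentiation 11 of the 24 rose and 3 fell by limma, against 25.9% and 19.5% of all genes, with a median slope of 0.15 against 0.027 over all genes. Fgfrl1, which lacks a kinase domain, went from 2.41 in WT and 2.60 in Dnmt3a-KO on day 2 to between 5.51 and 6.12 later (limma adjusted p = 0.023). The ligand Fgf1 went from -2.98 and -2.30 to between -0.055 and 0.85 (limma adjusted p = 0.024). Fgf2, also counted as rising, was at or near the floor on day 2 and between -4.57 and -3.13 later. It passed the filter through the later arrays alone, so its slope rests on the floor and gives no measured fold.

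Among 35 tested of 40 other satellite cell and quiescence genes, none was called between genotypes either, and 14 had an unadjusted p under 0.05 (12.9% of all genes). In this list 14 of 35 genes were lower in Dnmt3a-KO on all 4 days and 2 were higher, against 11.5% and 10.9% of all genes. On days 4 to 6, 11 lay wholly below WT and 1 above, against 8.25% and 7.51%. Its median difference was -0.17 against -0.012 over all genes. Heyl, a target of Notch signalling, was lower by 1.04 ± 0.45 (SD, n = 4 days; limma adjusted p = 0.17), and Cdkn1c, a cyclin-dependent kinase inhibitor, by 0.92 ± 0.70 (limma adjusted p = 0.32), from a difference of -0.05 on day 2 to -1.76 on day 4. By the slope 17 genes of the list fell and 8 rose (limma), against 19.5% and 25.9% of all genes, among them Cdkn1c (-0.84 per day, adjusted p = 0.018), the receptor Notch3 (-0.78, adjusted p = 0.035) and Gas1 (-0.66, adjusted p = 0.014). Notch3 went from 2.53 in WT and 2.46 in Dnmt3a-KO on day 2 to between -1.61 and 0.16 later, and on days 4 to 6 the knockout was lower in each pair.

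Of 21 tested Pax upstream and partner factors none was called between genotypes, and 2 had an unadjusted p under 0.05 (12.9% of all genes). Pitx3, a homeobox factor of the myogenic lineage, was 1.73 in WT and 1.03 in Dnmt3a-KO on day 2, -0.05 and -1.08 on day 4, -0.16 and -1.18 on day 5, and 0.01 and -1.12 on day 6. Its difference was -0.97 ± 0.19 (SD, n = 4; limma adjusted p = 0.083) and lay between -1.13 and -0.69 on the single days. By the slope 10 of the 21 fell and 4 rose, against 19.5% and 25.9% of all genes, and the transcriptional coactivator Eya2 fell by 1.15 per day (limma adjusted p = 0.017). Meox1 rose (0.59 per day, limma adjusted p = 0.047). Meox2, also counted as rising, was at the floor on both day 2 arrays and well above background on 5 of the later ones. It passed the filter through later arrays alone, so its slope rests on the floor and gives no measured fold.

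Of 18 tested syndecan and heparan sulphate genes none was called between genotypes, and 2 had an unadjusted p under 0.05 (12.9% of all genes). Sulf1, a heparan sulphate sulphatase, was lower in Dnmt3a-KO by 0.54 ± 0.71 (SD, n = 4; limma adjusted p = 0.48), mostly on day 6, and the sulphotransferase Hs6st2 was higher by 0.43 ± 0.29 (SD, n = 4; limma adjusted p = 0.32). Against 25.9% of all genes that rose by the slope and 19.5% that fell, 1 of the 18 rose, the glypican Gpc1, which is also in the FGF list (0.33 per day, limma adjusted p = 0.014), and 6 fell, among them Ndst2 (-0.26, limma adjusted p = 0.018) and Sdc2 (-0.22, limma adjusted p = 0.040). Of 10 genes of the calcitonin receptor family 5 were tested, none was called between genotypes, and 1 had an unadjusted p under 0.05 (12.9% of all genes). Ramp3, an accessory protein of Calcr and its relative Calcrl, was lower in Dnmt3a-KO by 0.65, 0.82, 0.59 and 0.55 on days 2, 4, 5 and 6 (limma adjusted p = 0.10). By the slope 3 of the 5 rose (25.9% of all genes), Ramp1 (0.59 per day, limma adjusted p = 0.036), Ramp3 (0.21, limma adjusted p = 0.016) and Crcp (0.12, limma adjusted p = 0.020).

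Of 14 tested genes of myoblast commitment and differentiation none was called between genotypes, and 2 had an unadjusted p under 0.05 (12.9% of all genes). Their median difference was 0.0063, against -0.13 for the 9 members and -0.012 over all genes. Myf6, a late myogenic regulator, was higher in Dnmt3a-KO on all 4 days by 0.61 ± 0.42 (SD, n = 4; limma adjusted p = 0.31), and Mymk, the myoblast fusion protein myomaker, by 0.16 ± 0.056 (limma adjusted p = 0.39). By the slope 5 of the 14 rose and 2 fell, against 25.9% and 19.5% of all genes. Mef2c rose (0.43 per day, limma adjusted p = 0.022), as did muscle creatine kinase, Ckm (0.40, limma adjusted p = 0.014), and Myod1 fell (-0.33, limma adjusted p = 0.018). The interaction test called none of the genes of these 6 lists, and none of them had an unadjusted p under 0.05.

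Genes whose profile over the 8 arrays was most like that of a member were ranked by Pearson's r of log2 signal, as a description. Nearest to Pax7 were Patj (r = 0.99), Tcf3 (0.99), Iqsec3 (0.99) and Nipsnap1 (0.99). Of these Iqsec3 had the widest step after day 2, at -3.15, and Nipsnap1 the largest genotype difference, at -0.66. Nearest to Fgfr4 were Saa1, G3bp1, Lama5 and Psme1, each lower in Dnmt3a-KO on all 4 days, with Lama5, a laminin chain of basement membranes, differing by 0.79 and stepping by -2.03. Nearest to Megf10 were Nr2c1, Bms1, Gtpbp4 and Celf4, each higher in the knockout on all 4 days and lower after day 2. The ranked profile holds the genotype differences as well as the step, so neighbours picked by it share both in part by selection. All 8 arrays share the step after day 2, and 458, 475 and 494 genes had an r over 0.95 with Pax7, Fgfr4 and Megf10. Calcr, at the floor, has no such neighbours.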

How the data were processed

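Cultured satellite cells were profiled on 8 one-colour (Cy3) Agilent arrays, grouped by genotype and day from the labels. Spot intensity is the processed signal of Agilent Feature Extraction, as deposited by the authors; per the file headers the later days used version 9.5.3.1 with scanner model G2505B and day 2 used 11.0.1.1 with G2505C, all with probe coordinates on mm9, while the submitters' processing notes name version 9.5. The deposited value table holds a score per spot: 100 times the signal over its array's 75th percentile over all spots, rounded, which was matched within 1 on 100.0% of spots. Its column medians were 6 or 7, its direction and scale are known, and it served as an alternative.

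Each array's intensity was divided by its 75th percentile (719.5 to 1528.1) over 43020 non-control spots, set to at least 0.00763, the lowest scaled signal well above background, and log2 was taken. Outlier spots were left out, spots of a probe were averaged, and 273 of 39429 probes without a usable spot on some array were dropped. RefSeq accessions of GRCm38.p6 matched 26049 probes and updated 3357 symbols. Each gene kept its brightest probe and was tested if at least 4 of its 8 values were well above background.

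Tests used limma 3.58.1 in R 4.3.3 over all genes with Benjamini-Hochberg adjustment at 0.05: genotype with day as a fixed block (3 residual degrees of freedom), slope per day with genotype (5), and their interaction (4). The steps were tested on simulated data. A fold against a probe below background uses the lowest signal well above background and is a bound. No replicate numbers pair arrays beyond the shared day. Alternatives covered scaling, background, filter, probes, variance, blocks, weights, the score, the fold threshold and each day or array left out. The members and gene lists were chosen with earlier results of these data known. Named genes were the members, the 4 nearest profiles of Pax7, Fgfr4, Calcr and Megf10, and from each list the 3 largest called changes of a comparison, or else the 2 largest.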

Additional observations from a re-analysis of the deposited data

How the results depend on the processing

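Array number limits precision here: 1 array per genotype and day leaves 3 residual degrees of freedom for the genotype difference, and Calcr is too dim to compare. The count of members called between genotypes was 0 in the reported fit, 1 (Fgfr4) under normexp with quantile normalization and 1 with a trended, robust variance, and 0 under the other alternatives run, including each day left out. Over all genes that test called 2, and between 0 and 128 under alternatives, the last with day as a random block. The count for the slope was 6, and it was 2 without the filter on dim probes and 1 with slide as a random block. It was 0 on days 4 to 6 alone, in WT alone and in Dnmt3a-KO alone, and ran from 0 to 8 when a day or an array was left out. Other settings added calls. Fgfr1 and Spry1 passed with a trended, robust variance (limma adjusted p = 0.044 and 0.049) and with array weights (0.0035 and 0.0066). Under quantile normalization both passed (limma adjusted p = 0.046 and 0.044) and Sdc4 did not (0.0502). With signal well above background required on all 8 arrays, Fgfr1 was added (limma adjusted p = 0.049). Leaving 1 array of a day out assumes that the remaining one varies like the others. Counted as pairs of a member and a day, 4 were past 2-fold on single days (Fgfr4 on 3 days and Pax7 on 1), 1 was under normexp, 11 were past 1.5-fold and 1 was past 3-fold. The interaction called 0 members and 0 genes under the alternatives run; array weights for it were not run, because they did not converge.

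The slope changed direction under some alternative for every tested member but Cd34, and the genotype difference did so for Sdc4 and Fgfr1. The Sdc4 genotype difference was 0.015 with array median scaling and 0.00035 with quantile normalization, and ran from -0.086 to 0.036 with a day left out. That of Fgfr1 was 0.024 as the mean of all probes, 0.19 and 0.015 with its other probes, and ran from -0.26 to 0.0065 with a day left out. On days 4 to 6 alone the slope was 0.13 for Pax7, 0.090 for Pax3, 0.069 for Spry1, 0.12 for Sdc3, 0.23 for Sdc4, 0.18 for Megf10, 0.0038 for Fgfr4 and 0.11 for Fgfr1, and that of the Fgfr1 probe A_55_P1967015 was 0.16 over all days. With a day or an array left out, slopes ran from -1.11 to 0.13 for Pax7, -0.49 to 0.090 for Pax3, -0.25 to 0.069 for Spry1, -0.19 to 0.12 for Sdc3, -0.65 to 0.23 for Sdc4, -0.74 to 0.18 for Megf10, -1.24 to 0.0038 for Fgfr4 and -0.38 to 0.11 for Fgfr1. The cause was not tested beyond the absence of day 2 in these fits. The genotype differences of Fgfr4, Pax7, Pax3, Megf10, Spry1, Sdc3 and Cd34 kept their sign under all alternatives run, but not their size. They ran from -1.49 to -0.90 for Fgfr4, -0.85 to -0.30 for Pax7, -0.55 to -0.045 for Pax3, 0.32 to 0.46 for Megf10, 0.067 to 0.24 for Spry1, -0.48 to -0.12 for Sdc3 and 0.024 to 0.46 for Cd34. The smallest for Pax3 and Pax7 came under normexp, for Cd34 without day 5 and for Spry1 without day 6. Under normexp the slope count stayed at 6, with Pax3 lost and Fgfr1 called.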

Other observations

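Other marker lists gave a partial view of what else the cultures held. The 8 markers of satellite cells and myoblasts summed to 248.4 in WT and 254.7 in Dnmt3a-KO on day 2, in multiples of the 75th percentile, and to between 162.5 and 194.2 on the later days. The largest part is Itga7, at 6.64 and 6.81 on the log2 scale on day 2 and between 5.91 and 6.25 later. Pax7, Vcam1, Cdh15, Myod1 and Chrna1 were also lower on every later array. Des was higher, at 4.70 and 4.90 on day 2 and between 5.69 and 6.00 later. The 7 markers of smooth muscle and pericytes, of which Notch3 is also in a list of satellite cell genes, summed to 127.4 and 124.5 on day 2, to 118.1 to 154.7 in WT later and to 105.2 to 116.2 in Dnmt3a-KO. This sum follows Acta2, which was between 6.67 and 7.22 on the log2 scale and lower in Dnmt3a-KO on each day, while on day 5 Cspg4 was 1.70 in Dnmt3a-KO and 1.44 in WT and Pdgfrb 0.32 and -0.01. Myh11 was well above background on 1 array. The 8 leukocyte markers summed to 20.8 and 21.3 on day 2 and to between 8.88 and 13.0 later, with Cd68 and Lyz2 well above background on no array. This sum follows Itgam, which was 4.35 in WT and 4.38 in Dnmt3a-KO on day 2 and between 2.95 and 3.56 later. Of the others, Fcer1g shared its fall, while Csf1r, Adgre1, Ptprc and Cd14 were higher on every later array than on day 2. The 7 Schwann cell markers stayed between 0.41 and 1.27, and the 6 adipocyte markers between 0.43 and 0.64.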
